A study of Danio rerio with 24 samples.

Results

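The livers of zebrafish larvae that overexpressed miR-21 on a control diet were set against the livers of wild-type larvae on a 10% cholesterol diet, so that each group carried 1 insult, a microRNA in one and dietary cholesterol in the other. The question was which genes tell these livers apart and which stood at the same level in both. The comparison used 6 of the 24 libraries of the study, 3 from each group, and every library of one group had a partner from the same batch in the other (batches 7, 8 and 9). No measured value entered the choice of these libraries. The batch numbers were assigned here. In the labels, batches 8 and 9 share a stem that batch 7 does not have.

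Each library held RNA from 13 pooled livers of larvae at 13 days post fertilization. The miR-21OE-NCD group carried a transgene in which the fabp10a promoter, active in hepatocytes, drove zebrafish dre-mir-21-1 with the green fluorescent protein Dendra2, next to a red lens marker under the cryaa promoter, and was fed control diet (NCD). The WT-HCD group consisted of non-transgenic siblings fed the same diet with 10% cholesterol added. The other libraries of these batches came from miR-21OE-HCD larvae (transgene and cholesterol diet, n = 3) and from WT-NCD larvae (neither, n = 3), and 12 further WT libraries on either diet came from batches 1 to 6. The livers of a library came from 1 clutch, and the labels give the batch of each library without saying what its libraries share. The transgenic line descended from founders outcrossed to AB fish, and no library carried the fluorescent construct without the microRNA, so effects of the microRNA and of the rest of the construct cannot be told apart. Since genotype and diet both differ between miR-21OE-NCD and WT-HCD, a difference between them cannot be assigned to either from these 6 libraries alone. The WT-NCD values are therefore given beside it for many of the named genes.

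Hepatocytes take up cholesterol with lipoproteins and also make it from acetyl-CoA through the mevalonate pathway. When sterols in the membrane of the endoplasmic reticulum run low, the transcription factor SREBP2 is released and raises the enzymes of synthesis together with the LDL receptor. When sterols are plentiful, SREBP2 is held back, and oxysterols activate the liver X receptors, which raise the transporters that export cholesterol. miR-21 is a microRNA found at high levels in many tumors, including hepatocellular carcinoma, and it represses messenger RNAs with sites for its seed.

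The labels were checked first. The MIR21 gene ENSDARG00000082187 was counted 117, 146 and 210 times in the miR-21OE-NCD libraries, against 139, 36 and 45 times in WT-HCD and 53, 25 and 12 times in WT-NCD. At 5.2, 5.2 and 9.28 CPM (counts relative to library size, scaled by the trimmed mean of M values) against 4.62, 1.38 and 1.54 CPM, the groups did not overlap, but WT-HCD 7 lay close under the lowest transgenic library, and the log2 difference of 1.57 ± 0.49 (standard error) did not pass the test (adjusted p = 0.235, and 0.195 with a difference of 2.07 without WT-HCD 7). The other MIR21 gene, ENSDARG00000080484, had 0 counts in all 6 libraries, which allows up to 3 counts in each, and was not tested. These libraries were not made to capture mature microRNAs. Crystallin cryaa (CRYAA in the gene table), whose promoter drives the lens marker, had 25, 12 and 10 counts in miR-21OE-NCD and 0, 0 and 1 in WT-HCD (adjusted p = 0.0537). The transcript of fabp10a, the fatty acid binding protein of hepatocytes, was at 9808, 10715 and 9212 CPM in miR-21OE-NCD and 6107, 12208 and 9649 CPM in WT-HCD, and its level was matched in the sense defined below.

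The 6 libraries held 22380251 to 28214962 counts, within the range of 16942574 to 36641566 over all 24. Of 14 hepatocyte markers, none was at 0 in any of the 6 libraries, and their summed level was 38523 to 51223 CPM of the library total in miR-21OE-NCD and 33251 to 57158 CPM in WT-HCD. Summed markers of the exocrine pancreas, an organ that lies against the liver, were 4557, 873 and 52964 CPM in miR-21OE-NCD and 1736, 3551 and 1620 CPM in WT-HCD, with none of 15 markers at 0, and none of the 15 passed the test. Batch 7 stood apart in sterol genes, as described below. WT-HCD 7 was also the highest WT-HCD library for several genes that were high in transgenic livers (MIR21, MIR30E, MAPK8IP3, NME3, RET, DLAT, actb1 and BHMT), and it had no cryaa count. Other such genes went the other way, and WT-HCD 7 was the lowest for SLC23A1 (2.26 CPM) and mansc1 (0.0332 CPM). Genes lower in miR-21OE-NCD than in WT-HCD also went both ways. WT-HCD 7 was the lowest WT-HCD library for LDHD, IGFBP2, SLC27A6, adh8a, angptl2b and HSD3B7. It was the highest for IGFBP3, f8, TIE1 and arhgap12b. The batch 7 library of WT-NCD was likewise the lowest of its group for LDHD, IGFBP2, adh8a, angptl2b and HSD3B7, but not for SLC27A6. In WT-NCD, too, batch 7 had the most MIR21 counts (53, against 25 and 12). Whether transgenic livers had entered the WT-HCD 7 pool was not tested. Whether the differences in tissue content or between libraries shaped any result was not tested either. In RNA from whole livers, fewer cells of a type and less RNA per cell cannot be told apart.

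Of 21660 genes tested, 102 differed between miR-21OE-NCD and WT-HCD (0.471%, edgeR quasi-likelihood test, Benjamini-Hochberg adjusted p under 0.05), 56 higher (0.259%) and 46 lower (0.212%) in miR-21OE-NCD. A further 7281 genes (33.6%) were at a matched level, meaning that the 95% interval of their log2 difference lay wholly between -1 and 1, that is, within 2-fold either way. The other 14277 genes were neither, so their levels were not decided at this depth and number of libraries. Matching followed depth, with 62.8% of the 11089 genes of at least 50 counts on average matched and 3.02% of the rest. The differences of called genes ran between 1.05 and 6.77 on the log2 scale for the higher genes and between -1.05 and -5.28 for the lower ones, while the median over all genes was 0.01. All 102 went the same way in 3 of 3 batches. The test compared libraries within these same batches, so this agreement, like the separation of groups given next, follows in part from the selection. For 48 of the 56 higher genes every miR-21OE-NCD library lay above every WT-HCD library (5.81% of all genes did so), and for 42 of the 46 lower genes every one lay below (5.09%). The calls rest on the comparison within batches: without the batch term edgeR called 0 genes (1522 at an unadjusted p under 0.05, against 2263 with it), whereas DESeq2 called 195 without and 536 with it. Against the shared WT-NCD libraries, 58 genes were called for miR-21OE-NCD (0.268%) and 18 for WT-HCD (0.0831%). The same diet comparison called 793 of 23420 genes (3.39%) in the WT libraries of batches 1 to 6. Since the fits against WT-NCD of batches 7 to 9 share libraries with the comparison, only these counts and values per library are given for them. Leaving out 1 library lowered the count to 24 (miR-21OE-NCD 1), 37 (miR-21OE-NCD 2), 36 (miR-21OE-NCD 3), 69 (WT-HCD 7), 27 (WT-HCD 8) or 54 (WT-HCD 9). Of the 31 called genes named by rule, 12 kept their call whichever of the 6 libraries was left out.

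The called gene with the largest difference, CYP51A1, belonged to cholesterol synthesis. Of 22 tested genes of the pathway, 3 were called, all higher in miR-21OE-NCD, 2 were matched and 17 were neither, with a median log2 difference of 3.99. Over all genes 0.471% were called and 33.6% matched, and 62.8% of those with at least 50 counts on average were matched. The counts were 21 positive against 1 negative, while 10895 of all 21660 genes were positive. DESeq2 with the batch term called 12 of the 22, all higher, against 536 of the 21660.

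CYP51A1 (ENSDARG00000042641), the lanosterol demethylase, was at 34.9, 2284 and 825 CPM in miR-21OE-NCD, against 1.33, 7.57 and 4.78 CPM in WT-HCD and 34.4, 2145 and 2621 CPM in WT-NCD. The compared groups did not overlap, although miR-21OE-NCD 1 and WT-NCD 7, both of batch 7, were far below their groups. The log2 difference of CYP51A1 was 6.77 ± 0.82 (adjusted p = 0.00438). It was 7.86 without WT-HCD 7, 6.14 without WT-HCD 8, 6.17 without WT-HCD 9 and 6.11 without miR-21OE-NCD 2, and the call held in each case (adjusted p at most 0.0441). SC5D, a desaturase of the last steps, was at 6.44, 136 and 53.5 CPM in miR-21OE-NCD and 0.432, 1.34 and 1.81 CPM in WT-HCD, a log2 difference of 5.37 ± 0.99 (adjusted p = 0.0415) that lost its call whichever library was left out, at adjusted p of 0.0633 to 0.215, and was 4.60 without miR-21OE-NCD 2. In WT-NCD, SC5D was at 1.27, 88.3 and 135 CPM.

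Batch 7 separated from the others across the pathway. The median log2 difference over the 22 genes was 0.90 in batch 7, 5.52 in batch 8 and 3.93 in batch 9. SQLE, the squalene epoxidase, was at 0.0444, 362 and 72.8 CPM in miR-21OE-NCD, 0.166, 0.0384 and 0.0342 CPM in WT-HCD and 0.154, 405 and 686 CPM in WT-NCD, so that in batch 7 it was low in each of these groups, and its log2 difference of 10.00 ± 1.96 did not pass the test (adjusted p = 0.0529). HMGCS1, a synthase early in the mevalonate pathway, was at 6.84, 1761 and 292 CPM in miR-21OE-NCD, 6.87, 23.5 and 37.4 CPM in WT-HCD and 11.9, 1093 and 2635 CPM in WT-NCD. Again the batch 7 libraries were low on either diet. With batch 7 left out, a choice made after these values were seen, 16 of the 22 genes were called, all higher in miR-21OE-NCD, and the total over all genes was 96. What set batch 7 apart was not tested.

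**Figure D1:**
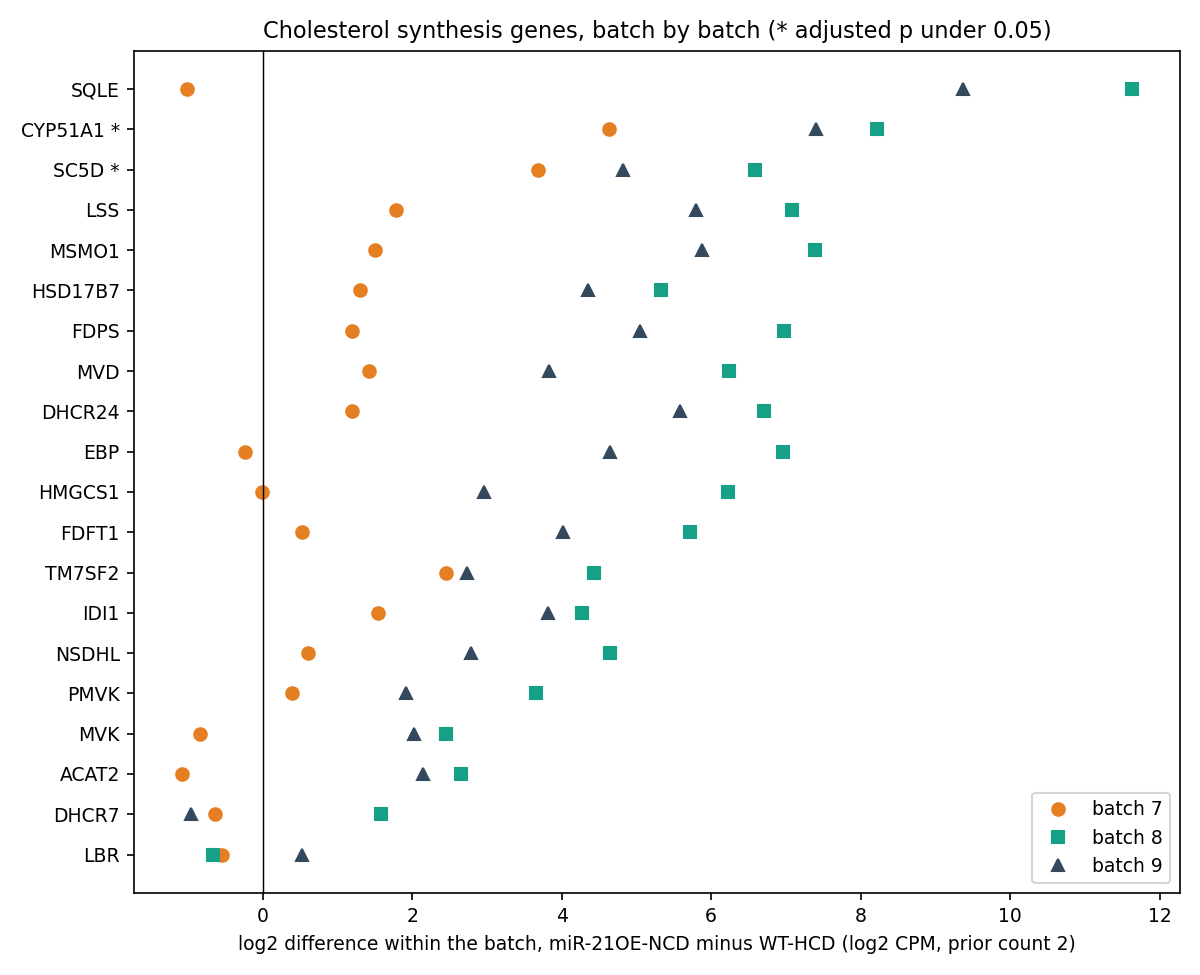
Log2 difference within each batch, miR-21OE-NCD minus WT-HCD (log2 CPM with a prior count of 2), for 20 of the 22 tested genes of cholesterol synthesis, ordered by the fitted difference, with 1 point per batch and an asterisk for adjusted p under 0.05. The median over the 22 genes is lower in batch 7 (0.90) than in batches 8 and 9 (5.52 and 3.93). CYP51A1 and SC5D are high in all 3.

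In 12 WT libraries of batches 1 to 6, which share no library with the comparison, both of these genes were lower on the cholesterol diet, with log2 differences (WT-HCD minus WT-NCD) of -9.07 (CYP51A1, adjusted p = 9.82e-05) and -5.82 (SC5D, adjusted p = 0.0016). LBR, a sterol reductase that is also a nuclear envelope receptor, was among the matched genes of the pathway.

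Genes that regulate sterol synthesis and uptake held fewer calls. Of 16 tested genes of SREBP control and LDL uptake, 1 was called and 5 were matched, with a median of 0.35. The matched share was 31.25%, near the 33.6% of all genes and below the 62.8% of those with at least 50 counts on average. Over all genes 0.471% were called. NPC1L1, which carries cholesterol into cells, was at 46, 111 and 105 CPM in miR-21OE-NCD, against 15.1, 45.2 and 36.7 CPM in WT-HCD and 24.6, 94.4 and 108 CPM in WT-NCD. The groups of the comparison did not overlap and the log2 difference was 1.48 ± 0.22 (adjusted p = 0.0152), but the call was lost without any of 5 of the 6 libraries (adjusted p up to 0.104). The LDL receptor gene ldlra was at 839, 1235 and 728 CPM in miR-21OE-NCD and 338, 436 and 415 CPM in WT-HCD, without overlap, and did not pass (log2 difference 1.23 ± 0.25, adjusted p = 0.0634). SREBF1, SCAP, MBTPS1 and MBTPS2 were among the matched genes, which include the escort protein and both proteases that release SREBPs.

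Export and storage of sterols leaned the other way, with 10 of 13 tested genes negative (10765 of 21660 over all genes) and a median of -1.15. There was 1 call (0.471% of all genes were called), and 4 genes were matched. The matched share was 30.8%, against 33.6% of all genes and 62.8% of those with at least 50 counts on average. DESeq2 with the batch term called 5 of the 13 lower and 1 higher, and 536 of 21660 over all genes. ABCG5, one member of the transporter pair that secretes sterols into bile, was at 11.7, 18.7 and 13.4 CPM in miR-21OE-NCD, against 24, 56 and 61 CPM in WT-HCD and 9.68, 11.6 and 19.3 CPM in WT-NCD. It was lower in all 3 transgenic libraries than in any cholesterol-fed one (log2 difference -1.60 ± 0.25, adjusted p = 0.0192), and the call was lost without any of 5 of the 6 libraries (adjusted p up to 0.0993). Its partner ABCG8 was at 11, 23.5 and 15.2 CPM in miR-21OE-NCD and 17.3, 62.7 and 71.1 CPM in WT-HCD, with overlap and no call (log2 difference -1.49, adjusted p = 0.0937). ABCG1, another sterol exporter, was at 2.44, 0.142 and 1.02 CPM in miR-21OE-NCD and 6.18, 9.26 and 9.64 CPM in WT-HCD, without overlap but short of the threshold (log2 difference -3.29, adjusted p = 0.060). On the diet in batches 1 to 6, ABCG5 and ABCG1 were higher in WT-HCD than in WT-NCD, by 2.78 (adjusted p = 0.0057) and 3.89 (adjusted p = 0.00684).

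Long-chain fatty acid synthesis held the next group. Of 19 tested genes of fatty acid and triglyceride synthesis, 2 were called, both higher in miR-21OE-NCD, and 4 were matched, with a median of 0.45. The matched share was 21.1%, against 33.6% of all genes and 62.8% of those with at least 50 counts on average. Over all genes 0.471% were called. FADS3 (ENSDARG00000019532), called fads2 in the study, desaturates polyunsaturated fatty acids. It was at 906, 3026 and 2476 CPM in miR-21OE-NCD, against 59.98, 272 and 107 CPM in WT-HCD and 1223, 2783 and 2576 CPM in WT-NCD. Transgenic and WT-NCD values overlapped, and all lay above the cholesterol-fed values, with a log2 difference of 3.92 ± 0.35 (adjusted p = 0.00103, at most 0.00927 with 1 library left out). ELOVL2, the elongase of the same pathway, was at 117, 1944 and 1092 CPM in miR-21OE-NCD, against 24.9, 298 and 109 CPM in WT-HCD and 249.6, 1574 and 1951 CPM in WT-NCD. Its groups overlapped because miR-21OE-NCD 1 was below WT-HCD 8, yet each batch had the transgenic library higher (log2 difference 2.74 ± 0.33, adjusted p = 0.00438). Both genes were lower on the diet in batches 1 to 6, with log2 differences of -5.17 for FADS3 and -4.59 for ELOVL2 (WT-HCD minus WT-NCD, adjusted p = 0.000646 and 0.00289). ME1, ACACB, DGAT2 and mlxipl were the matched members.

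**Figure D2:**
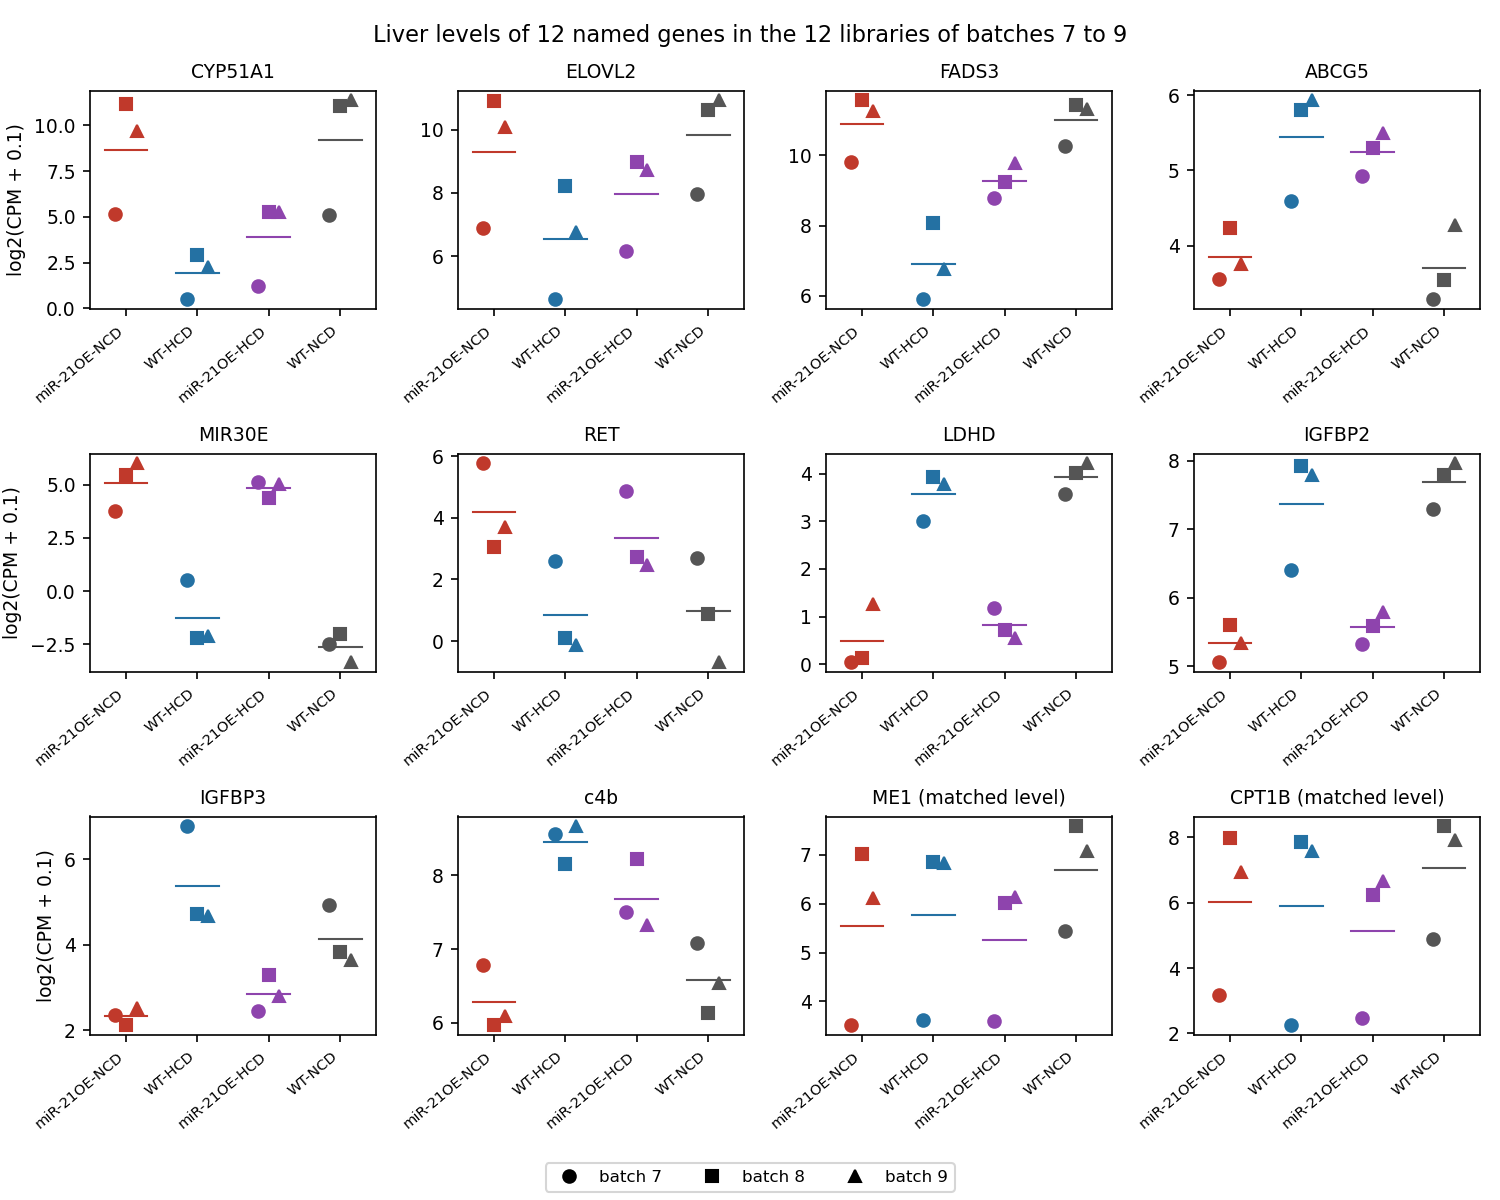
Levels of 12 named genes as log2(CPM + 0.1) in the 12 libraries of batches 7 to 9, grouped as miR-21OE-NCD, WT-HCD, miR-21OE-HCD and WT-NCD, with 1 point per library, its shape giving the batch, and a line at the mean of the 3. CYP51A1 and FADS3 are lower in WT-HCD than in either control-diet group. MIR30E is high, and LDHD, IGFBP2 and IGFBP3 low, in miR-21OE-NCD and miR-21OE-HCD alike. Within each batch RET is higher in both transgenic groups than in both WT groups. Across batches it overlaps, with miR-21OE-HCD 3 (5.39 CPM) below WT-HCD 7 (5.98 CPM). ME1 and CPT1B are matched between miR-21OE-NCD and WT-HCD.

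Other called genes were higher in miR-21OE-NCD than in WT-HCD. MIR30E (ENSDARG00000083500), a gene of the miR-30 family, was at 13.4, 44.1 and 63.6 CPM in miR-21OE-NCD, against 1.33, 0.115 and 0.137 CPM in WT-HCD and 0.0768, 0.148 and 0 CPM in WT-NCD. The lowest transgenic library was above the highest WT library, and among the WT libraries WT-HCD 7 was highest. The log2 difference was 6.37 ± 0.86 (adjusted p = 0.00745), with adjusted p of 0.0611 and a difference of 5.78 without WT-HCD 8. The difference was 8.34 without WT-HCD 7, 5.64 without WT-HCD 9, 7.43 without miR-21OE-NCD 1 and 5.75 without miR-21OE-NCD 3, all called. MAPK8IP3, a scaffold of JNK signaling and axonal transport, was at 41.3, 57.3 and 52.7 CPM in miR-21OE-NCD, against 6.71, 2.23 and 1.91 CPM in WT-HCD and 1.57, 3.71 and 2.66 CPM in WT-NCD. The groups did not overlap and the log2 difference was 3.90 ± 0.50 (adjusted p = 0.0060), or 4.67 without WT-HCD 7 (adjusted p = 0.0018), the call holding with any 1 library left out. NME3, a nucleoside diphosphate kinase, was at 9.96, 32.3 and 36.4 CPM in miR-21OE-NCD, against 5.08, 3.15 and 1.47 CPM in WT-HCD and 1.42, 4.05 and 1.95 CPM in WT-NCD. NME3 and MAPK8IP3 have no protein-coding gene between them in the RefSeq table of assembly GRCz12tu, and counts of overlapping genes could not be separated without the strand setting. The log2 difference of NME3 was 2.90 ± 0.53 (adjusted p = 0.0411), and the call was lost without any of 4 of the 6 libraries (adjusted p up to 0.205), while without WT-HCD 7 the difference was 3.81 (adjusted p = 0.00339).

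RET, the receptor tyrosine kinase for GDNF family ligands, was at 54.2, 8.19 and 12.9 CPM in miR-21OE-NCD, against 5.98, 0.96 and 0.82 CPM in WT-HCD and 6.41, 1.73 and 0.525 CPM in WT-NCD. Batch 7 was highest in every group, and each transgenic library exceeded every WT-HCD library (log2 difference 3.43 ± 0.35, adjusted p = 0.00207). The gene mansc1 was at 0.889, 13.2 and 11.5 CPM in miR-21OE-NCD and 0.0332, 1.73 and 0.478 CPM in WT-HCD, overlapping because batch 7 was low in both (log2 difference 3.71 ± 0.46, adjusted p = 0.0048, and 4.59 without WT-HCD 8). SLC23A1, a sodium-dependent vitamin C transporter, was at 13.3, 14.9 and 13.8 CPM in miR-21OE-NCD, against 2.26, 2.54 and 4.1 CPM in WT-HCD and 2.07, 2.77 and 2.96 CPM in WT-NCD. Its values were close within each group, and the log2 difference was 2.27 ± 0.24 (adjusted p = 0.00244). All 3 genes kept their call with any 1 library left out. The cytoplasmic actin actb1, chosen after its value was seen, was at 2134, 3462 and 2869 CPM in miR-21OE-NCD and 986, 653 and 595 CPM in WT-HCD (log2 difference 1.87 ± 0.31, adjusted p = 0.0252).

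Genes low in transgenic livers included enzymes of lactate, alcohol and lipid metabolism. LDHD, the mitochondrial D-lactate dehydrogenase, was at 0.933, 0.996 and 2.3 CPM in miR-21OE-NCD, against 7.9, 15.1 and 13.6 CPM in WT-HCD and 11.7, 16.1 and 18.4 CPM in WT-NCD. No transgenic library reached the lowest WT library of either diet, and the log2 difference was -3.14 ± 0.37 (adjusted p = 0.00392, at most 0.0292 with 1 library left out). SLC27A6, a fatty acid transporter and acyl-CoA synthetase, was at 1.56, 3.13 and 1.94 CPM in miR-21OE-NCD, against 6.81, 30.7 and 41.4 CPM in WT-HCD and 18.2, 13.8 and 39.3 CPM in WT-NCD. The groups did not overlap (log2 difference -3.29 ± 0.48, adjusted p = 0.0111), and the adjusted p was 0.0589 without miR-21OE-NCD 1 and 0.0748 without WT-HCD 8. The alcohol dehydrogenase gene adh8a was at 0.533, 5.12 and 3.67 CPM in miR-21OE-NCD and 3.65, 30.3 and 28.9 CPM in WT-HCD, overlapping because batch 7 was low in both (log2 difference -2.74 ± 0.38, adjusted p = 0.0101, up to 0.063 with 1 library left out, the call being lost for 3 of the 6). HSD3B7, which acts early in bile acid synthesis, was at 9.2, 12.8 and 18.3 CPM in miR-21OE-NCD and 21.6, 32 and 55.6 CPM in WT-HCD (log2 difference -1.40 ± 0.27, adjusted p = 0.048), a call lost whichever library was left out (adjusted p 0.0512 to 0.229). In WT-NCD, adh8a was at 3.38, 23.4 and 67.5 CPM and HSD3B7 at 35.9, 54.1 and 49.4 CPM. HSD3B7 was the only call among 15 tested genes of bile acid synthesis and transport, against 0.471% called over all genes. Of the 15, 5 were matched (33.3%, against 33.6% of all genes and 62.8% of those with at least 50 counts on average).

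The insulin-like growth factor axis had 1 call among 10 tested genes, against 0.471% called over all genes. IGFBP2 (ENSDARG00000052470), which binds and carries insulin-like growth factors, was at 33.3, 48.7 and 40.5 CPM in miR-21OE-NCD, against 84.5, 243 and 222 CPM in WT-HCD and 158, 221 and 249.5 CPM in WT-NCD. Transgenic livers were below WT livers of either diet, without overlap (log2 difference -2.07 ± 0.25, adjusted p = 0.00442), and the call held whichever library was left out. The other IGFBP2 entry was matched, with a log2 difference of 0.28. IGFBP3, which was not on that list, was at 5.07, 4.27 and 5.7 CPM in miR-21OE-NCD, against 108, 26.2 and 25.2 CPM in WT-HCD and 30.3, 14 and 12.4 CPM in WT-NCD. Every transgenic value was below every WT value (log2 difference -3.14 ± 0.48, adjusted p = 0.016), WT-HCD 7 was the highest, and the adjusted p was 0.111 without miR-21OE-NCD 1 and 0.0777 without miR-21OE-NCD 2. Without WT-HCD 7 the difference of IGFBP3 was -2.44 (adjusted p = 0.0266). The angiopoietin-like gene angptl2b was at 0.711, 2.85 and 1.1 CPM in miR-21OE-NCD and 3.35, 14.5 and 8.27 CPM in WT-HCD, each transgenic library being below each cholesterol-fed one (log2 difference -2.50 ± 0.29, adjusted p = 0.00392). The uncharacterized gene si:ch211-253b18.3 was at 0.844, 1.1 and 1.41 CPM in miR-21OE-NCD and 5.38, 8.45 and 14.6 CPM in WT-HCD (log2 difference -3.0 ± 0.32, adjusted p = 0.00244). In WT-NCD, angptl2b was at 3.26, 7.96 and 4.05 CPM and si:ch211-253b18.3 at 1.73, 1.63 and 4.42 CPM.

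Some called genes lay on opposite sides of WT-NCD in the compared groups. MCOLN3, a cation channel of endosomes and lysosomes that was picked after its values were seen, was at 13.9, 23.5 and 19.9 CPM in miR-21OE-NCD, against 2.06, 2.65 and 4.54 CPM in WT-HCD and 7.3, 10.4 and 9.41 CPM in WT-NCD. All transgenic libraries were above, and all cholesterol-fed libraries below, the 3 WT-NCD libraries (log2 difference between the compared groups 2.68 ± 0.27, adjusted p = 0.00207). Thioredoxin gene txnb, likewise picked afterwards, was at 11.6, 18.1 and 14.8 CPM in miR-21OE-NCD, against 54.1, 53.7 and 43.4 CPM in WT-HCD and 29.4, 30.3 and 21.1 CPM in WT-NCD, the reverse arrangement (log2 difference -1.79 ± 0.24, adjusted p = 0.00719).

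Among central metabolic genes the calls were few. ASS1, the argininosuccinate synthase of the urea cycle, was at 5.33, 5.09 and 2.39 CPM in miR-21OE-NCD, against 0.93, 0.461 and 0.376 CPM in WT-HCD and 9.91, 13.3 and 6.78 CPM in WT-NCD. It was higher in the transgenic livers than in the cholesterol-fed ones without overlap (log2 difference 2.81 ± 0.37, adjusted p = 0.00719), while every library of both groups lay below every WT-NCD library. On the diet in batches 1 to 6, ASS1 differed by -1.99 (WT-HCD minus WT-NCD) and did not pass (adjusted p = 0.143). The call of ASS1 was lost without miR-21OE-NCD 1 or WT-HCD 8 (adjusted p = 0.0589 and 0.055), and it was the only one among 15 tested genes of the urea cycle and amino acid breakdown, of which 7 were matched. DLAT, a subunit of pyruvate dehydrogenase, was at 86.7, 93.6 and 70.9 CPM in miR-21OE-NCD, against 45.1, 30.8 and 38.7 CPM in WT-HCD and 31.1, 30.7 and 37.4 CPM in WT-NCD. The transgenic livers were above both WT groups (log2 difference 1.14 ± 0.20, adjusted p = 0.0349), but the call was lost without any of 5 of the 6 libraries (adjusted p up to 0.189). DLAT and LDHD were the calls among 38 tested genes of glucose and pyruvate metabolism, of which 17 were matched. BHMT, which remethylates homocysteine with betaine and was chosen after its value was seen, was at 24632, 18228 and 17563 CPM in miR-21OE-NCD, against 8806, 6832 and 5557 CPM in WT-HCD and 11266, 7792 and 6592 CPM in WT-NCD. The transgenic livers again lay above both WT groups (log2 difference 1.52 ± 0.20, adjusted p = 0.00719). Of 21 folate and serine one-carbon genes, 9 were matched and 0 called, with 3 in each direction at an unadjusted p under 0.05 and 2 in each direction called by DESeq2 with the batch term. Matched shares were 46.7% for the urea cycle list, 44.7% for glucose and pyruvate and 42.9% for one-carbon genes. Over all genes 0.471% were called and 33.6% were matched, and 62.8% of those with at least 50 counts on average were matched.

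Among markers of immune cells and vessels 1 neutrophil gene and 1 endothelial gene were called, both lower in miR-21OE-NCD. For comparison with the lists below, 0.471% of all genes were called and 10765 of 21660 were negative. EPX (the study's mpx, myeloperoxidase of neutrophils) was at 0.844, 0.463 and 0.486 CPM in miR-21OE-NCD, against 5.38, 6.99 and 4.27 CPM in WT-HCD and 0.768, 0.395 and 0.45 CPM in WT-NCD. The transgenic and the WT-NCD libraries were all below the cholesterol-fed ones (log2 difference -3.26 ± 0.47, adjusted p = 0.0111), and the call was lost without any of 4 of the 6 libraries (adjusted p up to 0.0826). On the diet in batches 1 to 6, EPX differed by 2.16 ± 0.97 (WT-HCD minus WT-NCD) and did not pass (adjusted p = 0.264). EPX was the 1 call among 7 tested neutrophil markers, all 7 of which were negative with a median of -1.72, and the summed level of the list was 4.16 to 5.44 CPM in miR-21OE-NCD and 11.4 to 25.1 CPM in WT-HCD, with 1 or 2 of 8 markers at 0 in every library. The inflammation list, with cytokines such as il1b and cxcl8a, had 9 of 9 tested genes negative and a median of -1.24, but 0 called, by edgeR or by DESeq2 with the batch term, with 3 at an unadjusted p under 0.05. The level of il1b was 0.444, 0.534 and 0.221 CPM in miR-21OE-NCD and 2.69, 1.84 and 2.19 CPM in WT-HCD, without overlap (log2 difference -2.52 ± 0.82, adjusted p = 0.26). Complement gene c4b was at 110.1, 62.5 and 68.1 CPM in miR-21OE-NCD, against 378, 285 and 406 CPM in WT-HCD and 135, 70.1 and 92.6 CPM in WT-NCD. Its compared groups did not overlap (log2 difference -2.19 ± 0.32, adjusted p = 0.0111), the adjusted p was 0.0698 without miR-21OE-NCD 2 and 0.0587 without miR-21OE-NCD 3, and c4b was higher on the diet in batches 1 to 6 (by 1.96, adjusted p = 0.0133).

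All 9 endothelial markers were negative, with a median of -0.83, 1 called and 2 matched. Over all genes 10765 of 21660 were negative, 0.471% were called and 33.6% matched. The summed level of the endothelial markers was 93.9 to 97.5 CPM in miR-21OE-NCD and 137 to 199 CPM in WT-HCD, with none at 0. TIE1, a receptor of vascular endothelium, was at 11.4, 14.7 and 18 CPM in miR-21OE-NCD and 32.5, 30.8 and 27.1 CPM in WT-HCD (log2 difference -1.05 ± 0.20, adjusted p = 0.0474), and lost its call whichever library was left out (adjusted p 0.0614 to 0.257). The endothelial adhesion receptor SELE was at 0.80, 0.249 and 0.928 CPM in miR-21OE-NCD and 2.56, 2.31 and 5.54 CPM in WT-HCD (log2 difference -2.45 ± 0.46, adjusted p = 0.0441), and likewise lost its call in each case (adjusted p 0.0545 to 0.186). Coagulation factor gene f8 was at 1.73, 1.07 and 1.9 CPM in miR-21OE-NCD and 26.4, 4.8 and 4.44 CPM in WT-HCD, WT-HCD 7 being highest (log2 difference -2.57 ± 0.49, adjusted p = 0.0472), a call lost without any of 5 of the 6 libraries (adjusted p up to 0.236), and a difference of -1.87 without WT-HCD 7. The GTPase-activating gene arhgap12b was at 13.5, 2.46 and 6.14 CPM in miR-21OE-NCD and 33.9, 14.5 and 13.5 CPM in WT-HCD (log2 difference -1.62 ± 0.30, adjusted p = 0.0438), and lost its call whichever library was left out (adjusted p 0.0661 to 0.148). In WT-NCD, TIE1 was at 22.7, 19.9 and 22.3 CPM and SELE at 1.69, 0.346 and 2.29 CPM. Also in WT-NCD, f8 was at 3.65, 1.29 and 1.69 CPM and arhgap12b at 16.8, 4.89 and 4.95 CPM. The uncharacterized genes si:ch211-9d9.1 and si:dkey-96l17.6 were lower, with log2 differences of -5.28 ± 0.98 and -2.51 ± 0.48. The call of si:ch211-9d9.1 was lost without any of 5 of the 6 libraries (adjusted p up to 0.18). That of si:dkey-96l17.6 was lost whichever library was left out (adjusted p 0.0832 to 0.218). The difference of si:ch211-9d9.1 was -6.13 without miR-21OE-NCD 1, -6.12 without WT-HCD 8 and -4.58 without WT-HCD 9. Of 15 macrophage markers tested, 0 were called (3 higher and 2 lower at an unadjusted p under 0.05, and 1 lower called by DESeq2 with the batch term), and the summed level was 40 to 77.4 CPM in miR-21OE-NCD and 80 to 144 CPM in WT-HCD, with 3 to 5 of 19 at 0. Whether a different share of blood and vessel cells had a part in these differences was not tested.

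**Figure D3:**
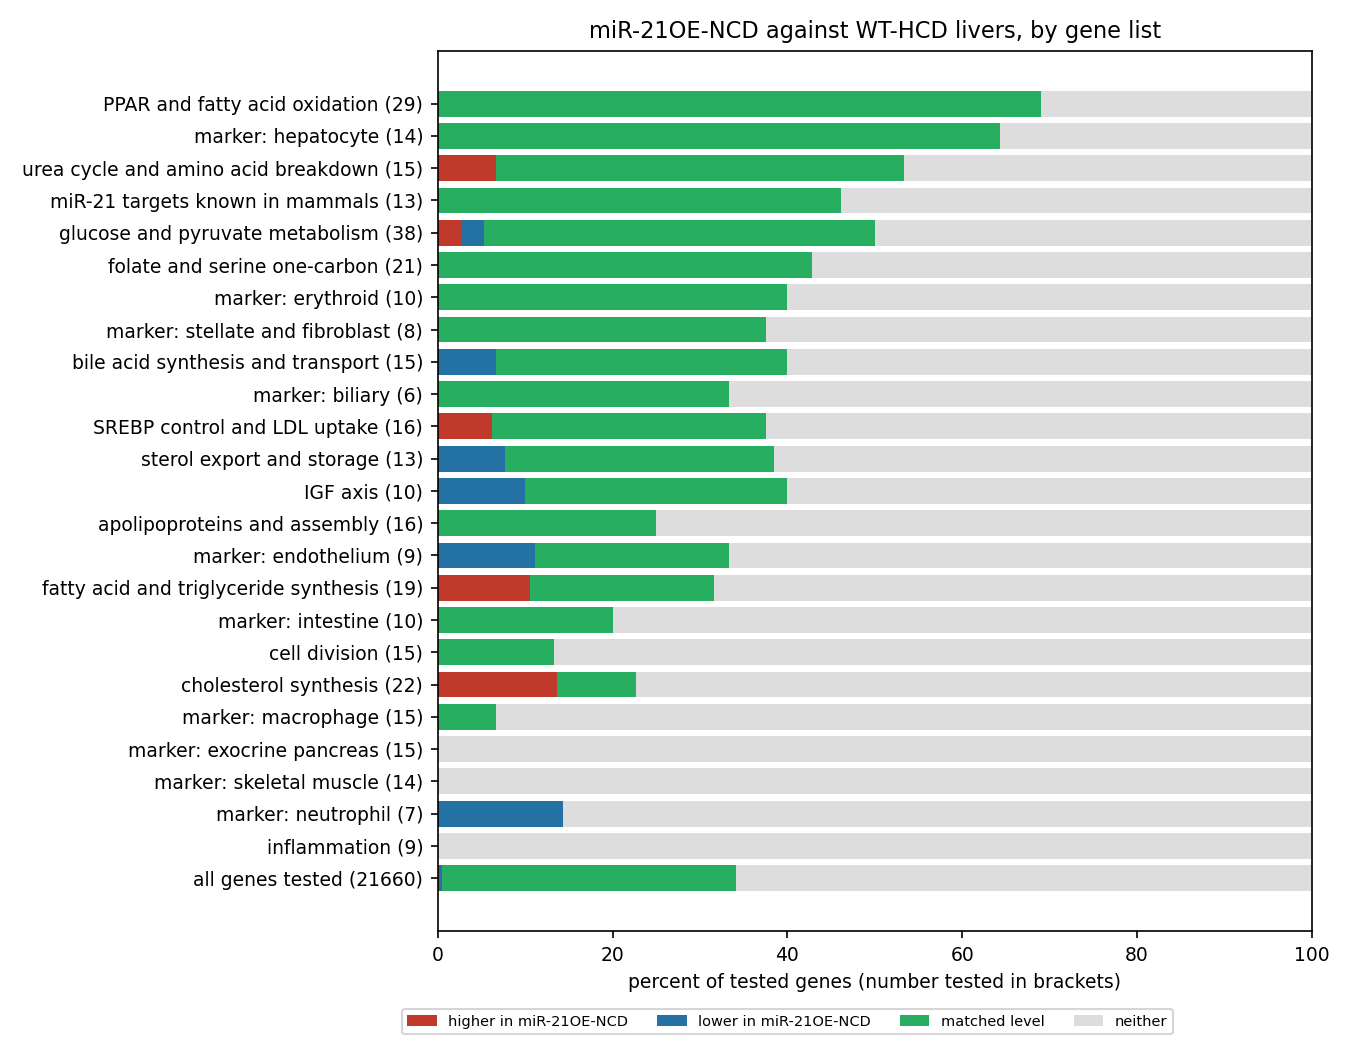
Share of the tested genes of each list, in percent, that were higher in miR-21OE-NCD than in WT-HCD, lower, at a matched level or neither, with the number tested in brackets. The PPAR and fatty acid oxidation list has the largest matched share (20 of 29, 69.0%). This is near the 62.8% of all genes with at least 50 counts on average. Cholesterol synthesis has the largest share of higher genes (3 of 22), and no inflammation gene was called or matched.

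Of the 14 hepatocyte markers, 9 were matched (64.3%, near the 62.8% of all genes with at least 50 counts on average) and 0 called by edgeR or by DESeq2, with 2 higher and 4 lower at an unadjusted p under 0.05. Some of the peroxisome proliferator-activated receptors (PPARs) switch on genes that burn fatty acids. Of 29 tested genes of PPARs and fatty acid oxidation, a list that also holds pparg and PLIN2, 20 were matched, with a median log2 difference of 0.10. By batch the median was 0.57, 0.05 and -0.13 (batches 7, 8 and 9). The matched share was 69.0%, against 33.6% of all genes and 62.8% of those with at least 50 counts on average. None of the 29 was called by edgeR or by DESeq2 with the batch term, and 4 higher and 2 lower genes had an unadjusted p under 0.05. CPT1A, the gatekeeper of fatty acid entry into mitochondria, was at 22.7, 52.2 and 36.7 CPM in miR-21OE-NCD, against 16, 47.4 and 53.4 CPM in WT-HCD and 19.6, 63 and 48.9 CPM in WT-NCD. The compared groups overlapped, and the 95% interval of the log2 difference ran from -0.43 to 0.48. ACADM, the medium-chain acyl-CoA dehydrogenase, was at 103, 268 and 227 CPM in miR-21OE-NCD, against 127, 327 and 305 CPM in WT-HCD and 249.5, 364 and 432 CPM in WT-NCD. ACADM was matched, with an interval of -0.80 to 0.14, and in every batch both compared libraries were below the WT-NCD library. PPARA (the study's pparab) was not matched or called, at 57.5, 41.1 and 59.9 CPM in miR-21OE-NCD and 81.5, 93.9 and 92.3 CPM in WT-HCD, which did not overlap (log2 difference -0.76 ± 0.27, adjusted p = 0.31). The number matched on this list was 14 to 23 when single libraries were left out, and 7 without the batch term.

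The cholesterol diet alone, in the WT livers of batches 1 to 6, changed 793 of 23420 genes (3.39%). Of the 102 genes that told miR-21OE-NCD from WT-HCD, 27 were among them (26.5%, against 3.66% of the 21385 genes tested in both), which is 3.45% of the diet genes tested in both. Of 446 genes higher on the diet, 9 were lower in miR-21OE-NCD than in WT-HCD, 1 was higher (SLC23A1) and 103 were matched (23.1%), with a median log2 difference of -0.54. The shares over all genes tested were 0.259% higher and 0.212% lower in miR-21OE-NCD. Of 336 genes lower on the diet, 15 were higher in miR-21OE-NCD, 2 were lower and 121 were matched (36%), with a median of 0.33. Among the 20603 genes not called for the diet, 40 were higher, 35 were lower and 34.2% were matched. The medians were largest in batch 7. In batches 7, 8 and 9 they were -0.91, -0.46 and -0.22 for the genes higher on the diet. For the genes lower on the diet they were 0.73, 0.26 and -0.02.

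Matched genes that rose on the diet included CTSC, a lysosomal protease, at 21.5, 22.6 and 26.5 CPM in miR-21OE-NCD, against 33.6, 25.2 and 22.3 CPM in WT-HCD and 17.7, 18.2 and 15.1 CPM in WT-NCD. Both compared groups lay above WT-NCD, and the interval of their difference was -0.61 to 0.25 on the log2 scale. FUCA1, a lysosomal fucosidase, was at 5.38, 6.44 and 2.96 CPM in miR-21OE-NCD, against 5.38, 6.99 and 5.4 CPM in WT-HCD and 1.65, 2.82 and 2.55 CPM in WT-NCD. The same arrangement held for FUCA1 (interval -0.89 to 0.31). The cadherin gene CDH17, the proton pump subunit ATP6V1A and zgc:77748 were the other named matched genes that rose on the diet in batches 1 to 6. Their intervals were -0.89 to 0.69, -0.91 to 0.68 and -0.78 to 0.74. They did not share the arrangement of CTSC and FUCA1, since for each of them both compared groups overlapped WT-NCD. CDH17 is also on the list of intestine markers. The summed level of that list was 44, 59.3 and 175 CPM in miR-21OE-NCD and 43.2, 67.8 and 58.5 CPM in WT-HCD. CDH17 itself was at 4.93, 3.95 and 12.5 CPM in miR-21OE-NCD.

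Matched genes that fell on the diet included ME1, the malic enzyme that supplies NADPH, at 11.3, 129 and 69.7 CPM in miR-21OE-NCD, against 12.3, 116 and 114 CPM in WT-HCD and 43.2, 192 and 135 CPM in WT-NCD. Within every batch both compared libraries were below the WT-NCD library, and the interval of their difference was -0.86 to 0.41. The gene cadpsb, a member of the family that primes secretory vesicles, was at 3.64, 3.45 and 3.09 CPM in miR-21OE-NCD, against 4.38, 3.88 and 3.62 CPM in WT-HCD and 22.3, 9.99 and 6.18 CPM in WT-NCD. Here too both compared groups were below every WT-NCD library (interval -0.99 to 0.55). CPT1B, a carnitine palmitoyltransferase 1 gene, was at 8.93, 254 and 121 CPM in miR-21OE-NCD, against 4.68, 234 and 191 CPM in WT-HCD and 29.8, 323 and 241 CPM in WT-NCD, with an interval of -0.80 to 0.88 and batch 7 low throughout. The amyloid precursor-like gene APLP1 had an interval of -0.44 to 0.83. Of the 11 matched genes that the naming rule selected, 2 to 6 stayed matched when single libraries were left out and 4 without the batch term.

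**Figure D4:**
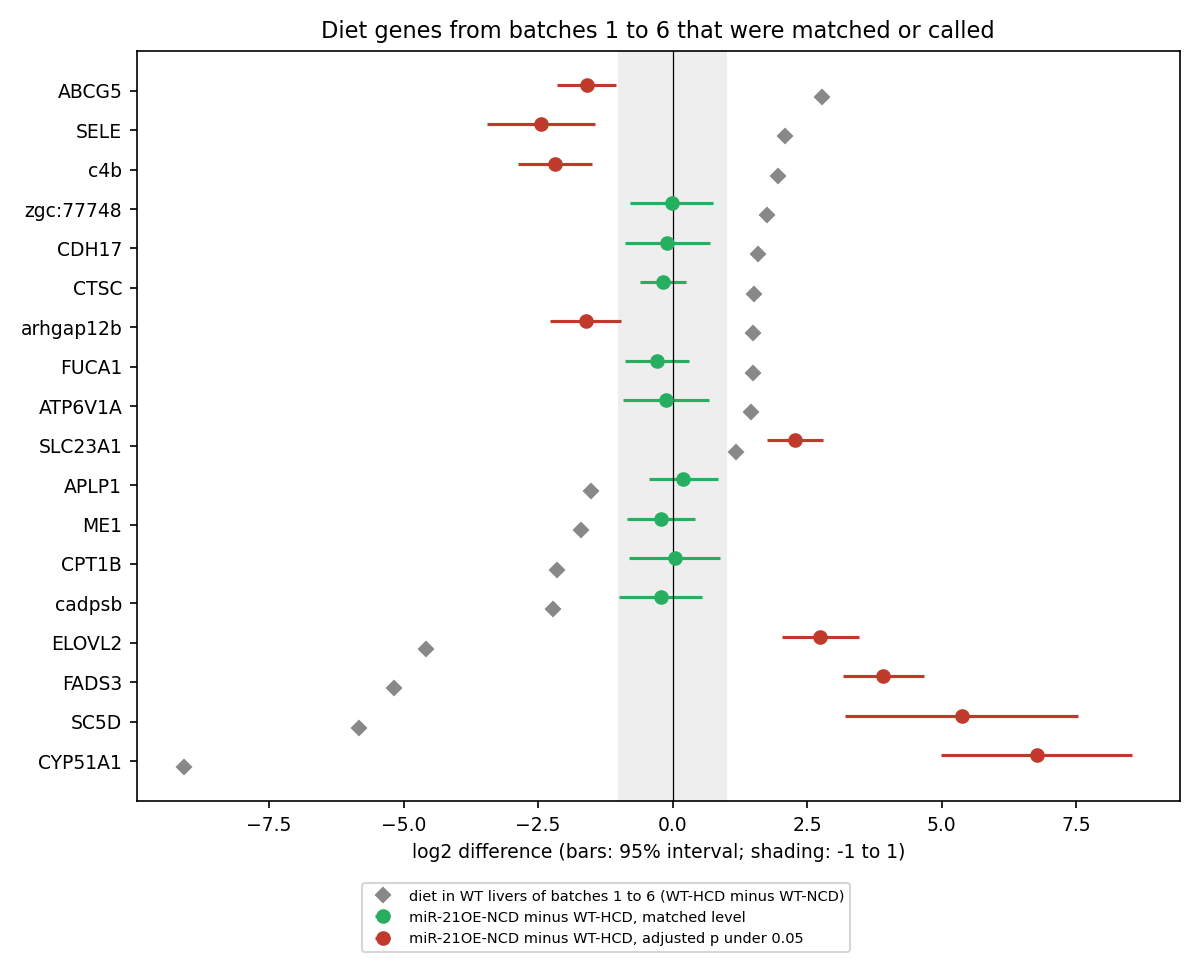
Log2 differences of 18 genes changed by the cholesterol diet in batches 1 to 6 (grey diamonds, WT-HCD minus WT-NCD), with the difference between miR-21OE-NCD and WT-HCD in batches 7 to 9 beside each (circles, bars the 95% interval, green for matched, red for adjusted p under 0.05, shading from -1 to 1). The 4 diet genes at the bottom, CYP51A1 to ELOVL2, have diet differences of -4.59 or below and lie at 2.74 or above for miR-21OE-NCD minus WT-HCD, and the 9 matched genes have bars within the shading.

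Livers with both insults were compared with livers with neither, miR-21OE-HCD against WT-NCD, in the 6 other libraries of the same batches, which share batches and the fit with the main comparison but no library. Of the 102 called genes, 47 were also called there (46.1%, against 1.25% of all genes tested). Of the 56 genes higher in miR-21OE-NCD than in WT-HCD, 17 were higher and 8 lower in miR-21OE-HCD than in WT-NCD. Of the 46 lower genes, 21 were lower and 1, ABCG5, was higher. Several genes were on the same side in the combined comparison, where MIR30E differed by 8.61 (adjusted p = 0.00229), MAPK8IP3 by 4.31 (adjusted p = 0.00207), LDHD by -3.12 (adjusted p = 0.00199) and IGFBP2 by -2.11 (adjusted p = 0.00214), all log2, miR-21OE-HCD minus WT-NCD. Sterol and fatty acid genes went both ways. CYP51A1 at -5.52 (adjusted p = 0.00477), FADS3 at -1.68 (adjusted p = 0.025), ELOVL2 at -1.91 (adjusted p = 0.0143) and ABCG5 at 1.53 (adjusted p = 0.0138) were on the other side. SLC27A6 at -3.24 (adjusted p = 0.00737) and HSD3B7 at -2.29 (adjusted p = 0.00229) were on the same side, and SC5D at -3.81 and NPC1L1 at -0.59 did not pass (adjusted p = 0.101 and 0.27). ASS1, higher in miR-21OE-NCD than in WT-HCD, was at 0.146, 0.366 and 0.232 CPM in miR-21OE-HCD and 9.91, 13.3 and 6.78 CPM in WT-NCD (log2 difference -5.28 ± 0.42, adjusted p = 0.000329). No library with both insults reached the lowest library with neither. For EPX, c4b and IGFBP3 the combined differences of 1.44, 1.2 and -1.16 did not pass (adjusted p = 0.19, 0.107 and 0.294).

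**Figure D5:**
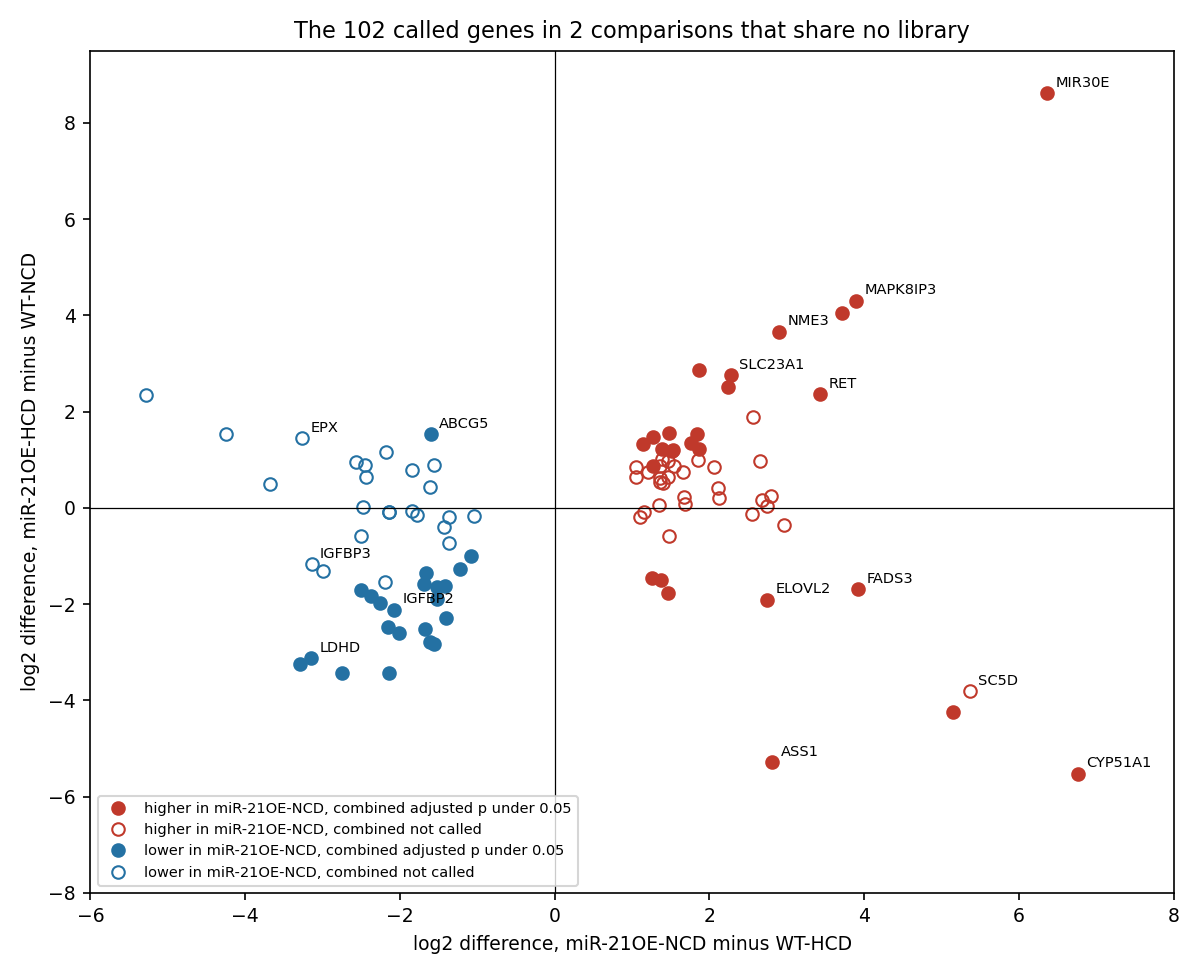
Log2 difference of the 102 called genes between miR-21OE-NCD and WT-HCD (x axis) and between miR-21OE-HCD and WT-NCD (y axis), red for higher and blue for lower in miR-21OE-NCD, filled where the combined comparison was also called. Genes such as MIR30E and MAPK8IP3 lie at upper right and LDHD at lower left, while CYP51A1, FADS3 and ASS1 lie at lower right and ABCG5 at upper left.

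Of 13 genes known as miR-21 targets in mammals, 6 were matched and 0 called between miR-21OE-NCD and WT-HCD (1 higher and 5 lower at an unadjusted p under 0.05, and 1 higher called by DESeq2), with 10 of 13 negative and a median of -0.40. The matched share was 46.2%, against 33.6% of all genes and 62.8% of those with at least 50 counts on average. Of all 21660 genes 10765 were negative, and 0.471% were called. The apoptosis gene PDCD4 was at 9.51, 2.6 and 9.94 CPM in miR-21OE-NCD and 25, 17.1 and 12.5 CPM in WT-HCD, without overlap (log2 difference -1.42 ± 0.46, adjusted p = 0.26). Its paralog pdcd4a was at 49.7, 25.5 and 44 CPM in miR-21OE-NCD and 15.6, 18.1 and 22.2 CPM in WT-HCD, also without overlap but in the other direction (log2 difference 1.05 ± 0.24, adjusted p = 0.0965). These genes were taken from mammals and their sites in zebrafish were not examined here.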

How the data were processed

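RNA from pooled larval livers was sequenced in paired reads after ribosomal RNA depletion. The authors aligned reads to GRCz11, and the submitters' processing notes name cutadapt 1.16, STAR 2.7.9a and featureCounts 1.6.3. The deposited values were raw counts per gene, not normalized, with no strand setting given in the sources used here, so overlapping or near-identical genes are uncertain. Of 32520 gene IDs, 29201 had a symbol and 4334 were at 0 everywhere. Symbols follow that gene table.

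The main test was edgeR 4.0.16 (quasi-likelihood, TMM scaling, genes with at least 10 counts in sum over the fitted libraries, Benjamini-Hochberg threshold 0.05) on the 12 libraries of batches 7 to 9, with 4 group means and batch as a replicate block. The authors' own analysis used DESeq2, run here as an alternative. Pairing comes from the batch label. Deviations of partners from their group means correlated at 0.66, 0.41 and 0.19 over 11030 genes, and those of the other 6 pairs at -0.54 to 0.36, miR-21OE-NCD 3 being closer to WT-HCD 8 (0.23) than to its partner WT-HCD 9. The diet was tested in the 12 WT libraries of batches 1 to 6 in the same way. The comparisons miR-21OE-NCD and WT-HCD each against WT-NCD share libraries with the main one, so only their counts of calls and per-library values are given. Level plots use log2(CPM + 0.1), list sums use CPM of library totals, and other CPM are TMM-scaled. Pooled livers are the replicates. The p-values of the main test set a difference against the spread left among the 12 fitted libraries after group and batch were taken out. None of the 276 pairs of libraries held identical values, and the chi-square of their counts was at least 27.4 per gene. The scripts were tested on simulated data.

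Named genes were the 10 highest and 10 lowest of the called genes that averaged 50 counts or more and went the same way in 3 of 3 batches, then list members past the threshold, up to 5 diet genes per class, and label genes. Other named genes are said to be chosen later or serve a list's account. The comparison, members and gene lists were chosen with earlier results of these data known. A planned search of promoter motifs was not run, and no sequence was used here. A few named items are not reported here, though counts and medians over lists include them.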

Additional observations from a re-analysis of the deposited data

How the results depend on the processing

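The 102 called genes had the same sign under every alternative tried, but the number of calls depended on the model. Without the replicate block, which pairs libraries by batch label, edgeR called 0 genes (0 higher, 0 lower), and DESeq2 called 195 (103 higher, 92 lower) without and 536 (289 and 247) with it, the last including all 102. With all 24 libraries 306 genes were called (187 higher, 119 lower, 86 of the 102 among them), with the 6 compared libraries alone 79 (36 higher, 43 lower, 52 of the 102), with library totals in place of TMM 61 (30 higher, 31 lower), without a filter 191 (112 higher, 79 lower), with DESeq2's size factors in edgeR 101, with at least 10 counts in 3 libraries 89, and without batch 7, a choice made after seeing the data, 96 (50 of the 102). Leaving out 1 library at a time gave 24 to 69 calls, 15 to 32 higher and 9 to 37 lower, and 5513 to 6370 matched genes against 7281. With a margin of 1.5-fold 1717 genes were matched. MIR21 passed with DESeq2 and the block (adjusted p = 0.0470, against 0.235 in the main test), and CRYAA passed with all 24 libraries (0.0373), without a filter (0.0313) and with the stricter filter (0.0493). The cause of these differences was not tested. Of the genes under 50 counts on average, 6 were called and 3.02% matched.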
